A study of Bos taurus with 12 samples.

Results

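Expression of 10 transcription factors of the trophectoderm was examined in expanded bovine blastocysts of known sex. The genes were CDX2, EOMES, GATA2, GATA3, TFAP2A, TFAP2C, KLF5, KLF6, ELF3 and ETS2. They were taken from the count table by their symbols, and all 10 were found among its 32637 genes. Embryos of Bos taurus were produced in vitro from slaughterhouse oocytes and thawed semen of bulls used in rotation, and expanded blastocysts of Day 7 or Day 8 were cut and sexed by PCR on one piece. The remaining piece was sequenced, and each library, which counts as 1 replicate, pools the pieces of 2 embryos of one sex. There were 6 female and 5 male pools, which shared media and stage, and no treatment was given. A 4-cell embryo sample sequenced with long reads was not analysed here. Which day, bull or collection week a pool came from is not in the labels.

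The trophectoderm is the outer epithelium of the blastocyst, which pumps the blastocoel fluid and later forms the placenta. The inner cell mass gives rise to the embryo proper, and the hypoblast to the yolk sac. In the mouse, nuclear YAP and TEAD4 in outer cells turn on CDX2 and GATA3, and factors of the AP-2, GATA, KLF and ETS families act on epithelial and trophoblast genes beside them. In ruminants the same tissue secretes interferon tau, the signal by which the mother recognises the pregnancy.

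Between 6664112 and 16162985 reads were counted on genes in the female libraries, and between 9942952 and 21392764 in the male libraries. The unit of all levels is CPM, in which edgeR's TMM factors set the libraries to one size. Exon lengths were not used, so the level of one gene is not compared with that of another. Cut pieces held both lineages, and in such bulk samples fewer cells of a type and less RNA per cell cannot be told apart. All 7 trophectoderm markers (KRT8, KRT18, KRT19, DAB2, LGALS3, PTGS2 and IFNT2) were counted in both sexes, with summed levels from 7646 to 23170 CPM in females and from 9027 to 37931 CPM in males. The 6 inner cell mass markers (NANOG, SOX2, POU5F1, LIN28A, KLF17 and SPIC) summed to between 560 and 980 CPM in females and between 792 and 1076 CPM in males. The hypoblast markers (COL4A1, FOXA2, GATA4, GATA6, HNF4A, PDGFRA and SOX17) summed to between 228 and 621 CPM in females and between 208 and 467 CPM in males, with SOX17 and FOXA2 under 1 CPM on average in each sex. The markers of cumulus cells, the somatic cells around the oocyte (AMH, CYP19A1, FOXL2, FSHR, HAS2, INHA and TNFAIP6), summed to between 7.19 and 32.7 CPM in females and between 5.38 and 29.5 CPM in males, and 2 of the 7 had no counts in any male. Most of this sum was FSHR, with means of 13.1 CPM in females and 9.99 CPM in males. Male replicate 5 stood apart from the other libraries. It had the highest level of all 11 libraries for 24.9% of the tested genes. It also had the most reads but the fewest genes with counts, 14937. The other libraries ran from 16985 (female replicate 1) to 18550 (female replicate 3). The part of this in its levels was not tested. The fold changes of the factors and some of their correlations are also given without male replicate 5.

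None of the 10 factors was called sex-biased. Of these, 9 had enough counts to be tested, and EOMES did not. Across all 12802 tested genes, males were set against females by the quasi-likelihood test of edgeR, with the library number as a block, and a gene was called where its fold change was over 1.5 and its p, adjusted by Benjamini-Hochberg, under 0.1. This called 1.91% of the tested genes, 0.414% as higher and 1.5% as lower in males. That number is the first of the numbers in a library's name. At an unadjusted p under 0.05 stood 1 of the 9 factors, KLF6, beside 13.2% of all tested genes. DESeq2 with the library number also called 0 of the factors. For none of the 9 were the libraries of one sex all above those of the other, a separation seen in 3.31% of the tested genes. Estimates were lower in males for 7 factors and higher for CDX2 and KLF5, with a median log2 fold change of -0.27. Over all tested genes, 49.5% were lower in males and the median was 0.01. Without male replicate 5, estimates were lower in males for 8 factors, among them CDX2, with a median of -0.38. The median over all tested genes was then -0.02. In that edgeR fit 0 of the 9 had an unadjusted p under 0.05, and the smallest adjusted p was 0.345, for GATA3. Its log2 fold changes were -0.29 for GATA2, -0.41 for GATA3, -1.03 for TFAP2A and -0.26 for TFAP2C. For KLF5, KLF6 and ETS2 they were 0.14, -0.38 and -0.53, and those of CDX2 and ELF3 are given below.

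**Figure D1:**
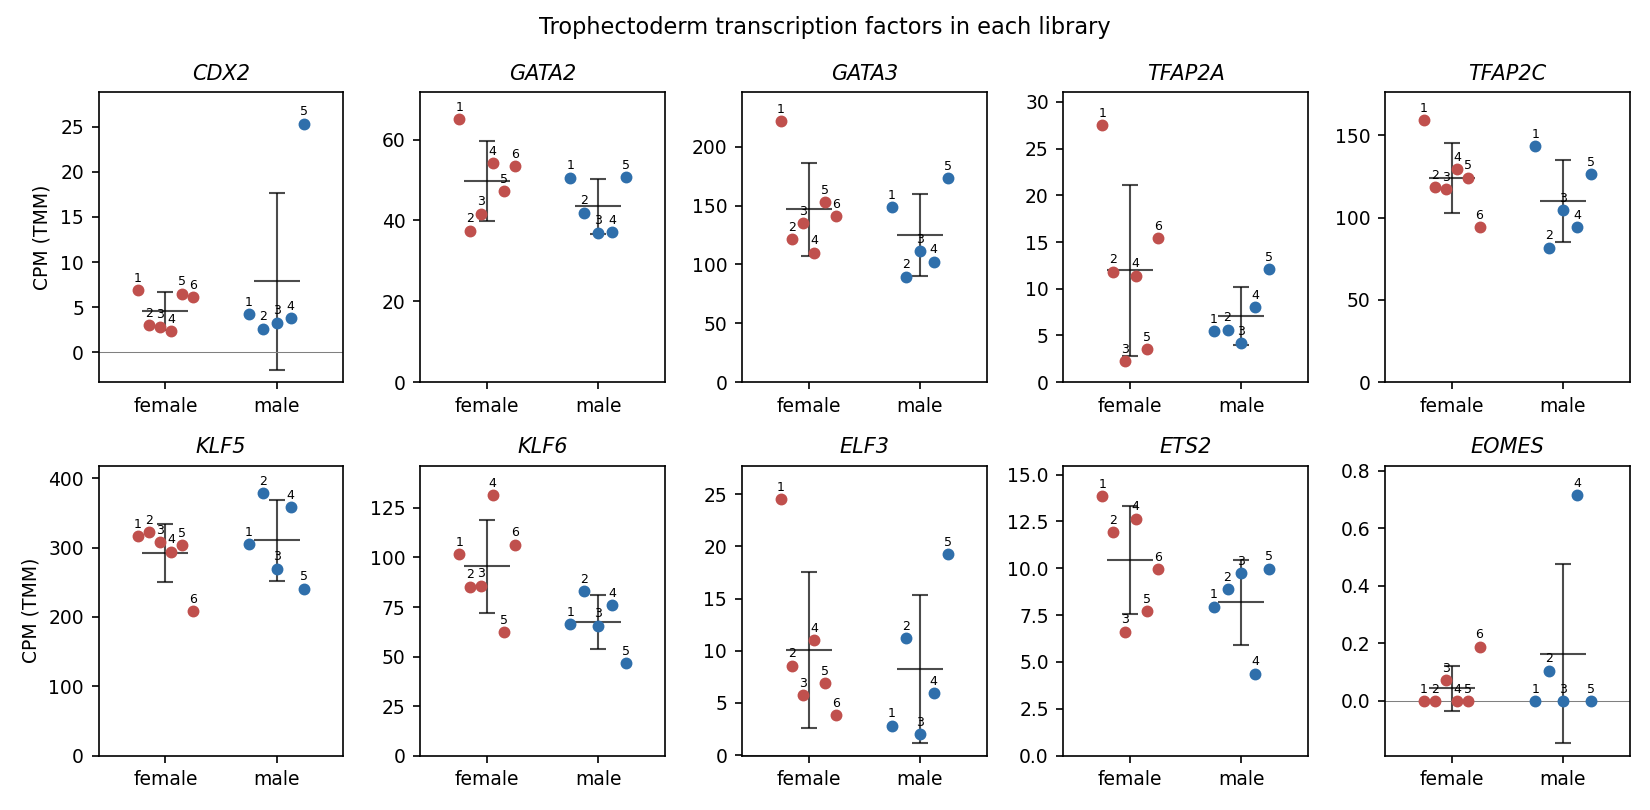
CPM of each factor (vertical axis, linear) in the 6 female and 5 male libraries (horizontal axis). Points are libraries with their replicate numbers, the long bar is the mean and the error bar 1 SD. The sexes overlap in every panel, male replicate 5 is apart from the other males in CDX2 (25.3 CPM), and female replicate 1 is the highest library in 6 panels.

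CDX2 is the caudal-type homeobox factor that maintains trophectoderm identity. In females it ranged from 2.34 CPM (17 counts) through a median of 4.57 to 6.93 CPM (91 counts). Male replicates 1 to 5 had 4.22, 2.64, 3.28, 3.81 and 25.3 CPM. The first 4 males lay inside the female range, and the last was above every other library. Its 523 counts give an exact (Clopper-Pearson) 95% interval of 23.2 to 27.6 CPM, and the interval of female replicate 1, the next library, ran from 5.58 to 8.51 CPM. Such intervals cover counting error only, because the reads carry no molecular identifiers and PCR copies count as reads. The level in male replicate 5 was 3.66 times that of the next library, and a ratio of at least 3 was seen in 0.711% of the tested genes in that library. The male mean was 7.86 ± 9.79 CPM (SD, n = 5) with this library and 3.49 ± 0.68 CPM (SD, n = 4) without it, and the female mean was 4.63 ± 2.10 CPM (SD, n = 6). The log2 fold change was 0.35 (standard error, SE, 0.50, 95% interval -0.73 to 1.44, Benjamini-Hochberg adjusted p = 0.815 by edgeR). Without male replicate 5 it was -0.33 (adjusted p = 0.683 by edgeR), and without the block, with all libraries, 0.77.

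Markers of the trophectoderm did not move as one with CDX2 in male replicate 5. That library was the highest for 5 of the 18 epithelial and secreted markers (KRT7, KRT8, KRT18, KRT19 and DAB2), beside the 24.9% of all tested genes. KRT8, the type II keratin of simple epithelia, was at 20143 CPM there and at most at 7314 CPM in the other 10 libraries. Its partner KRT18 was at 3836 CPM, against 2181 CPM in the next library, and KRT19 at 2174 CPM, against 1012 CPM. LGALS3 was at 9367 CPM there, against 9391 CPM in the highest other library. PTGS2 was at 1090 CPM there, where the highest other library had 3988 CPM. IFNT2 had 0 counts there, which was also its lowest level among the females. The pluripotency factor POU5F1 of the inner cell mass was also highest there, at 737 CPM, against 519 CPM in the next library. The other factors did not share this position. GATA3 was at 173 CPM in that library, below the 222 CPM of female replicate 1, and KLF6 had there its lowest level of all, 46.5 CPM. The part of this library's composition in its CDX2 level was not tested.

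EOMES, a T-box factor of the mouse trophectoderm, was hardly counted. It had 0 counts in 7 of the 11 libraries, and a limit of 3 counts per library corresponds to between 0.145 and 0.413 CPM. The other libraries had 1 count (female replicate 3 and male replicate 2), 3 counts (female replicate 6) and 9 counts (male replicate 4). The 9 counts give 0.715 CPM with an exact 95% interval of 0.327 to 1.36 CPM, above that limit, while the other libraries were at or under it. The means were 0.0436 ± 0.0769 CPM in females (SD, n = 6) and 0.164 ± 0.311 CPM in males (SD, n = 5), a difference of 0.121 CPM that did not exceed the spread of the libraries (exact permutation test over 462 splits, two-sided, p = 0.5). Of the other caudal-type genes, CDX1 and CDX4 were also too low to be tested, with 40 and 41 counts over all libraries.

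GATA2 and GATA3 are zinc finger factors of trophoblast cells. GATA3, on chromosome 13 (15904672 to 15935245, ARS-UCD2.0), ranged in females from 110.0 through a median of 138 to 222 CPM. The males had 149, 89.6, 111, 102 and 173 CPM, replicates 1 to 5 in order. Male replicates 2 and 4 were below every female, the other males lay inside the female range, and the highest library was female replicate 1. The log2 fold change was -0.27 (SE 0.22, 95% interval -0.74 to 0.20, Benjamini-Hochberg adjusted p = 0.656 by edgeR). An annotated long non-coding RNA lies inside this gene (LOC112449253, 15910543 to 15912874) and held 10 counts in all, against 19688 for GATA3. For GATA2, on chromosome 22, the females ranged from 37.5 through 50.3 to 65.0 CPM, and the males had 50.6, 42.0, 37.0, 37.0 and 50.7 CPM. Again the male values lay within or at the lower edge of the female range, and the log2 fold change was -0.22 (SE 0.19, 95% interval -0.63 to 0.18, adjusted p = 0.669 by edgeR). The log2 ratio of GATA3 to GATA2 within a library was 1.54 ± 0.29 (SD, n = 6) in females and 1.49 ± 0.25 (SD, n = 5) in males (two-sided exact permutation test, p = 0.725, 0.929 adjusted over 5 ratios).

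TFAP2A and TFAP2C are the AP-2 factors of the trophoblast lineage, and they differed in how steady they were. TFAP2C, on chromosome 13, ranged from 94.4 through 121 to 159 CPM in females, and the males had 143, 81.7, 105, 94.1 and 126 CPM. Its log2 fold change was -0.17 (SE 0.18, 95% interval -0.57 to 0.23, adjusted p = 0.745 by edgeR), with an interval that left out a 1.5-fold difference in either direction. TFAP2A, on chromosome 23 (45615045 to 45637794), ranged from 2.25 through 11.6 to 27.5 CPM in females, and the males had 5.46, 5.60, 4.18, 8.02 and 12.1 CPM. Both the highest and the lowest library of TFAP2A were female (replicates 1 and 3), 12.2-fold apart, so that all males lay between them. This factor had the largest estimate of the 9, a log2 fold change of -0.82 (SE 0.53, 95% interval -1.97 to 0.34, Benjamini-Hochberg adjusted p = 0.559 by edgeR). It ran from -1.15 without female replicate 5 to -0.48 without female replicate 1. Of the related AP-2 genes, TFAP2B was tested, at 1.18 ± 1.13 CPM in females (SD, n = 6) and at 1.27 ± 1.26 CPM in males (SD, n = 5), and was not called. TFAP2D and TFAP2E were too low to be tested.

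KLF5 and KLF6 are Krüppel-like zinc finger factors. KLF5, which the mouse embryo needs to form a blastocyst, had the lowest biological coefficient of variation of the factors in edgeR. Its level ranged from 209 through 306 to 323 CPM in females, and the males had 305, 379, 270, 359 and 241 CPM. The lowest library was female replicate 6, and the other 5 females lay between 294 and 323 CPM. The log2 fold change was 0.08 (SE 0.16, adjusted p = 0.874 by edgeR), and its 95% interval from -0.26 to 0.43 left out a 1.5-fold difference in either direction. KLF6, on chromosome 13 (44597302 to 44606045), came closest to a difference. Females ranged from 62.4 through 93.8 to 131 CPM, and males had 66.4, 83.1, 65.7, 75.9 and 46.5 CPM. Male replicate 5 was below every female, and the other males lay between female replicate 5 and the next female. The means were 95.5 ± 23.4 CPM (SD, n = 6) and 67.5 ± 13.8 CPM (SD, n = 5), a log2 fold change of -0.48 (SE 0.21, 95% interval -0.93 to -0.03). In edgeR its p was 0.0401 before and 0.35 after the Benjamini-Hochberg adjustment. Smaller p-values were found for 11.4% of the tested genes. The fits without one library placed KLF6 between -0.60 and -0.37. Within a library, the log2 ratio of KLF5 to KLF6 was 1.63 ± 0.49 (SD, n = 6) in females and 2.21 ± 0.12 (SD, n = 5) in males, a difference of 0.57 (two-sided exact permutation test, p = 0.0303, 0.152 adjusted over 5 ratios). Without female replicate 5 the difference was 0.70 and its adjusted p 0.0397 in the same exact test. Without any other single library the difference lay between 0.44 and 0.63, with adjusted p from 0.198 to 0.357 in that test.

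ELF3 and ETS2 belong to the ETS family. ELF3 is an epithelial factor, and ETS2 drives the interferon tau promoter in ruminant trophoblast. ELF3, on chromosome 16 (80502941 to 80508015), ranged from 3.84 through 7.74 to 24.5 CPM in females, and the males had 2.81, 11.2, 2.00, 5.96 and 19.2 CPM. The highest library of either sex, female replicate 1 and male replicate 5, was well above the others of that sex. The log2 fold change was -0.48 (SE 0.66, 95% interval -1.92 to 0.97, adjusted p = 0.813 by edgeR). It was -1.01 without male replicate 5 and 0.00 without female replicate 1. It was also -0.01 without male replicate 3, -0.08 without male replicate 1 and -0.95 without female replicate 6, so its value hung on several single libraries. ETS2, on chromosome 1, ranged from 6.61 through 10.9 to 13.9 CPM in females, and the males had 7.94, 8.88, 9.72, 4.37 and 9.98 CPM. Its log2 fold change was -0.33 (SE 0.28, 95% interval -0.95 to 0.28, Benjamini-Hochberg adjusted p = 0.67 by edgeR). The ratio of ELF3 to ETS2 spanned -2.20 to 0.94 on the log2 scale over the libraries, and the sexes did not differ in it beyond that spread (exact permutation test, p = 0.831).

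**Figure D2:**
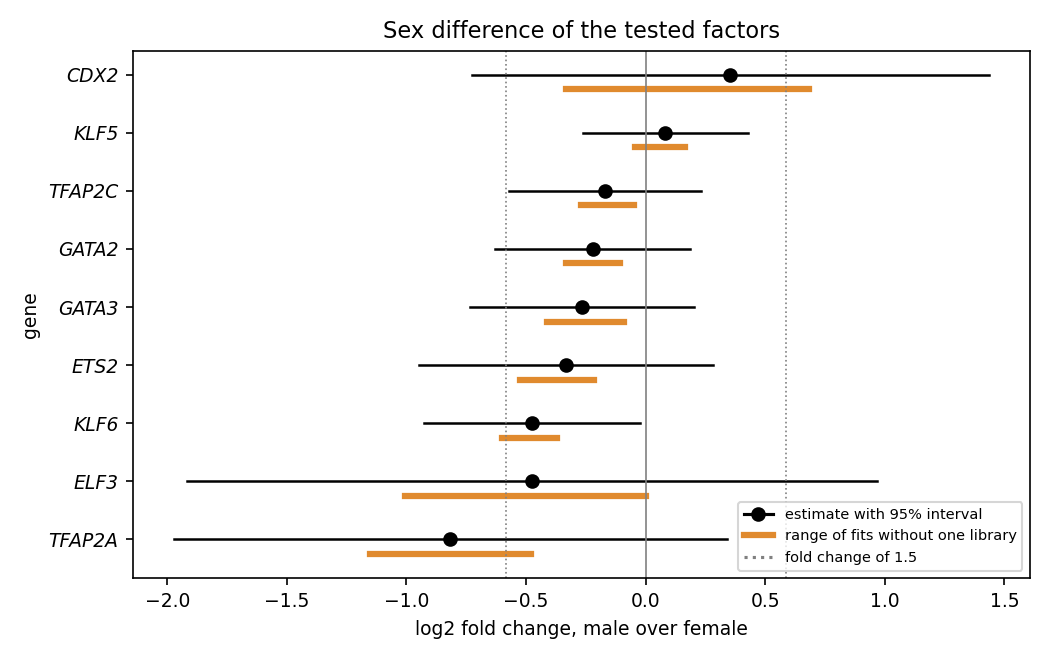
Log2 fold change of male over female (horizontal axis) for the 9 tested factors (vertical axis), with the 95% interval in black and the range of the 11 fits that each left out 1 library in orange. Dotted lines mark a 1.5-fold difference. Of the intervals, only that of KLF6 leaves out 0, and those of KLF5 and TFAP2C lie inside both dotted lines.

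The factors fell apart in their spread between libraries. The biological coefficient of variation, edgeR's estimate of the spread beyond counting error, was 0.206 for KLF5, 0.234 for TFAP2C, 0.240 for GATA2, 0.256 for KLF6 and 0.266 for GATA3. Against these stood 0.553 for CDX2, 0.574 for TFAP2A and 0.649 for ELF3, with ETS2 between at 0.347. For CDX2 much of this came from male replicate 5, since the coefficient of variation of the male CPM was 125% with it and 19.6% without it. Over all tested genes the median was 0.348, and 6.77% of them had a lower value than KLF5, whereas 87.5% had a lower value than ELF3. The steady genes were those with more counts, but the spread of CDX2, TFAP2A and ELF3 was also above edgeR's trend at their level (0.471, 0.410 and 0.416). Over the 11 libraries, the highest CPM was 1.76 times the lowest for GATA2 and 12.3 times for ELF3. Female replicate 1 was the highest library for 6 of the 9 factors (GATA2, GATA3, TFAP2A, TFAP2C, ELF3 and ETS2), and it was the highest for 7.93% of all tested genes. That library had 23170 CPM of the trophectoderm markers, 599 CPM of the inner cell mass markers and 273 CPM of the hypoblast markers. Its 32.7 CPM of the cumulus markers was the highest sum of any library, and 27.3 CPM of it was FSHR alone. The part of these markers in the levels of that library was not tested.

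Whether the factors rose and fell together between libraries was examined in 36 pairs, over the 11 libraries, with log2 CPM. Coefficients were positive in 27 pairs and their median was 0.35. None passed a Benjamini-Hochberg adjustment over the 36 pairs at 0.05, and 4 had an unadjusted p under 0.05. The highest was that of GATA3 with TFAP2C (Pearson r = 0.77, p = 0.0052, adjusted 0.187; Spearman rho = 0.70, p = 0.0201, permutation tests). Without the 2 libraries farthest from the median of GATA3 it was 0.46. GATA3 also went with GATA2 (r = 0.72, permutation p = 0.0119; rho = 0.55, p = 0.085) and with CDX2 (r = 0.68, permutation p = 0.0213; rho = 0.84, p = 0.00213). For CDX2 and GATA3 r was 0.68 without the 2 libraries farthest from the median of CDX2, and 0.77 without male replicate 5. With the means of sex and library number removed, r was 0.86 for CDX2 with GATA3 and 0.83 for TFAP2C with GATA3, and both passed the adjustment (permutation tests, adjusted p = 0.0101 and 0.0286). The blocks hold 3 or 4 libraries, too few for a value within each. Values with such means removed are not independent of each other, so these p-values may be too small. KLF5 and KLF6 had coefficients to CDX2 of -0.53 and -0.59, which were -0.38 and -0.17 without male replicate 5. KLF6 was positive with GATA2 (0.30), TFAP2A (0.36) and ETS2 (0.35). Without male replicate 5 these were 0.53, 0.64 and 0.53.

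**Figure D3:**
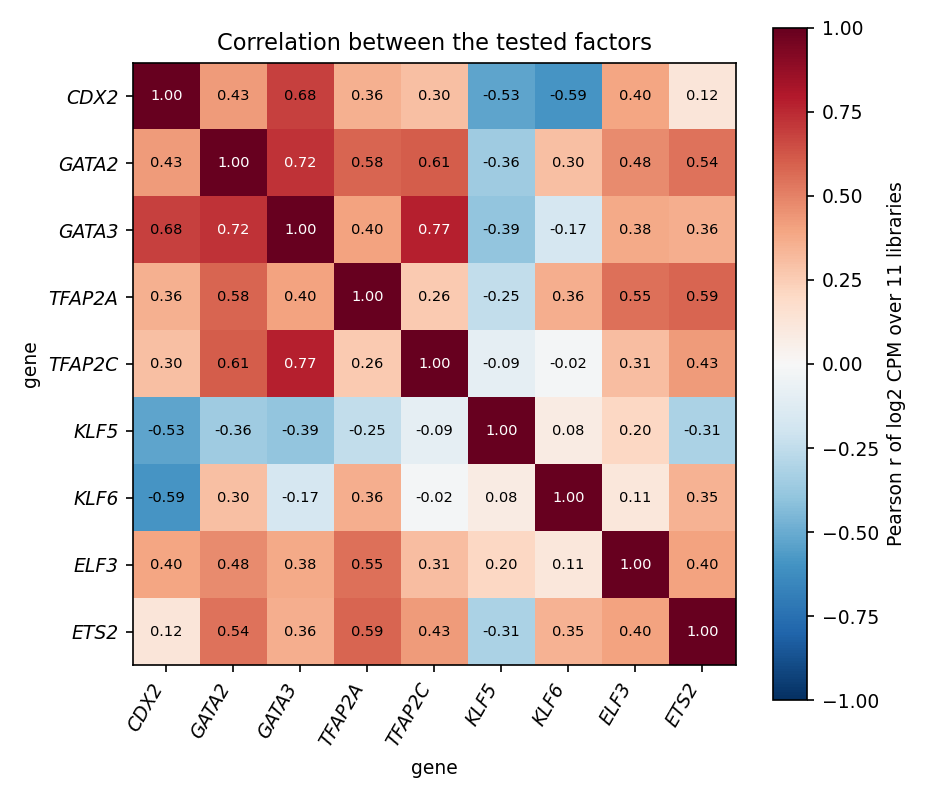
Pearson r of log2 CPM over the 11 libraries for each pair of the 9 tested factors (both axes list the genes). Red is positive and blue negative. GATA3 has its highest values with TFAP2C (0.77), GATA2 (0.72) and CDX2 (0.68), and KLF5 is negative with 6 of the other 8 factors.

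Levels of the factors were then set beside the summed lineage markers, a comparison of 27 relations that was chosen after the values were seen. CDX2 was lower where the sum of the hypoblast markers was higher (Pearson r = -0.82, permutation p = 0.0004, adjusted 0.0108 over the 27; Spearman rho = -0.74, p = 0.0126, adjusted 0.17). Leaving out the 2 libraries farthest from the median of the hypoblast sum gave r = -0.77, and leaving out male replicate 5 gave r = -0.81 (adjusted p = 0.151 in the permutation test). With the means of sex and library number removed r was -0.68 and the call was lost (permutation test, adjusted p = 0.076). In those values 3 other factors passed with the hypoblast markers, TFAP2A (r = -0.85, adjusted p = 0.0262), GATA2 (r = -0.80, adjusted p = 0.0332) and ETS2 (r = -0.80, adjusted p = 0.0332), all by permutation. Here too the values left after the removal are not independent, and these p-values may be too small. Both values come from one library and share its depth and scaling. Most of the hypoblast sum was GATA6 (means of 189 CPM in females and 177 CPM in males) and PDGFRA (153 and 149 CPM). In male replicate 5 PDGFRA, COL4A1 and GATA6 had their lowest male levels (17.9, 6.54 and 149 CPM), and FOXA2 was at 0. HNF4A, GATA4 and SOX17 were above their female means there (31.4, 1.6 and 1.21 CPM). The relation of CDX2 to single hypoblast markers was not tested. The other 26 relations did not pass the adjustment in the values as they stand. Among them, CDX2 and the trophectoderm markers had r = 0.75 (permutation p = 0.00741, adjusted 0.1; rho = 0.58, p = 0.0654), which was 0.49 without male replicate 5. TFAP2A had r = 0.66 with the trophectoderm, -0.65 with the inner cell mass and -0.64 with the hypoblast markers (permutation p = 0.0259, 0.0289 and 0.0332).

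**Figure D4:**
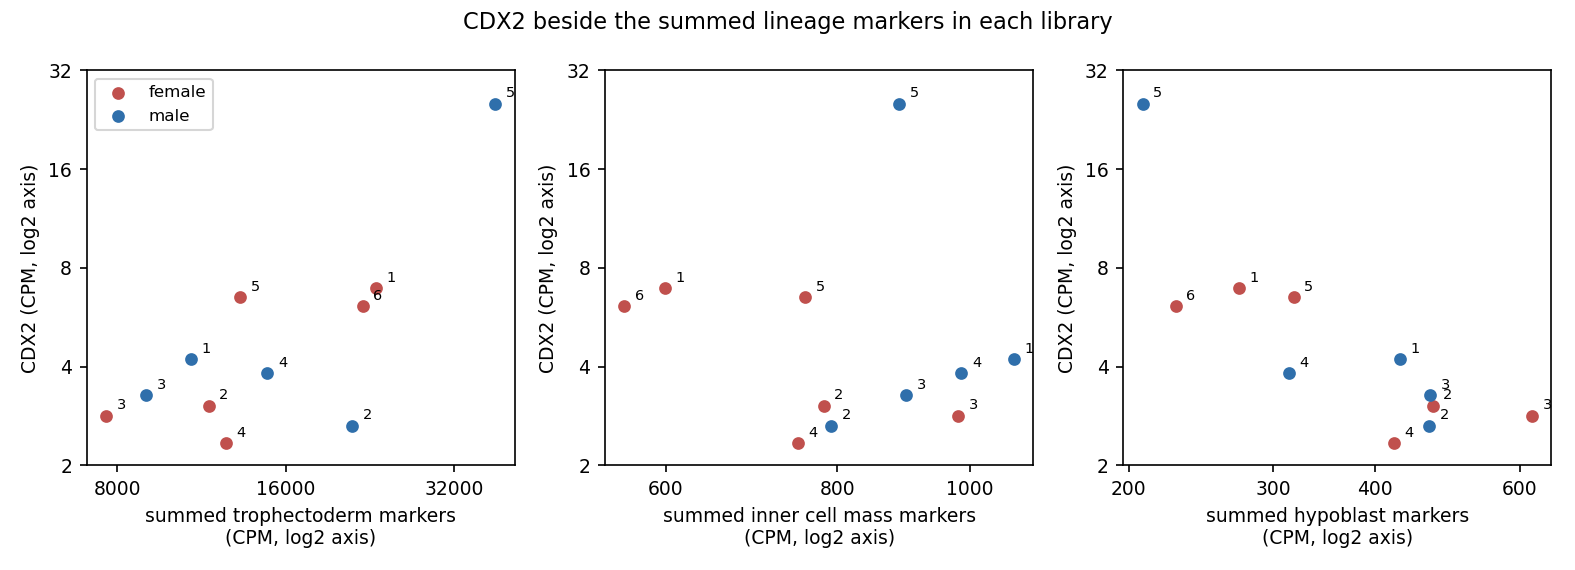
CDX2 (vertical axis, CPM, log2 axis) against the summed CPM (horizontal axis, log2 axis) of trophectoderm, inner cell mass and hypoblast markers in the 11 libraries. Points are libraries with their replicate numbers, red for female and blue for male. Male replicate 5 has the highest trophectoderm sum (37931 CPM) and the lowest hypoblast sum (208 CPM).

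Genes whose log2 CPM followed a factor most closely over the 11 libraries were sought among 11469 other tested genes with a name, and are given as a description with no test. For KLF5 these were SELP (r = 0.92), POLR2H (0.88) and CAPRIN1 (0.87). GATA3 was followed by BAK1 (0.95), STAU1 (0.92) and ASH2L (0.92), and TFAP2C by ABLIM1 (0.89), PNPLA6 (0.88) and C1QTNF12 (0.88). For KLF6 they were STK38L (0.90), DENND1B (0.90) and PPARGC1A (0.90).

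Upstream of the factors, 10 genes of the TEAD and YAP module were tested. One, AMOT, was lower in males, and none was higher. AMOT encodes angiomotin, which holds YAP outside the nucleus, and lies on the X chromosome (61245471 to 61313882). It was at 72.2 ± 14.4 CPM in females (SD, n = 6) and at 29.1 ± 5.60 CPM in males (SD, n = 5), with no overlap between the sexes, as in 3.31% of the tested genes. Its log2 fold change was -1.29 (SE 0.20, Benjamini-Hochberg adjusted p = 0.00817 by edgeR). In each of the 11 fits that left out 1 library it was called as well. Among all tested X-linked genes, 27.7% were called lower in males. TEAD4, the partner of YAP in the mouse trophectoderm, was at 43.0 ± 15.3 CPM in females (SD, n = 6) and at 49.6 ± 21.2 CPM in males (SD, n = 5), and YAP1 at 127 ± 11.4 and 120 ± 23.5 CPM. In male replicate 5 TEAD4 was at 84.8 CPM, and in the other libraries at most at 58.0 CPM. Neither was called. The median log2 fold change of the 10 genes was 0.02.

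Of 16 other transcription factors linked to trophectoderm or trophoblast, 13 could be tested. Neither edgeR nor DESeq2 called any (0 of 13), and 1 had an unadjusted p under 0.05 in edgeR. That gene was GCM1, a placental factor, at 9.66 ± 4.85 CPM in females (SD, n = 6) and at 15.3 ± 3.74 CPM in males (SD, n = 5). Estimates were lower in males for 9 of the 13, and the median log2 fold change was -0.40. ID2 was at 60.9 ± 33.6 CPM in females (SD, n = 6) and at 110 ± 92.4 CPM in males (SD, n = 5), and GRHL1 was at 96.1 ± 35.9 CPM in females and 87.8 ± 16.6 CPM in males. All 18 epithelial and secreted markers of the trophectoderm were tested, and edgeR called 0 of them, while 2 had an unadjusted p under 0.05. PTGS2, the prostaglandin synthase, was one of these, with a log2 fold change of -1.20 and an adjusted p of 0.166 by edgeR. DESeq2 with the library number called it lower in males (adjusted p = 0.0216). Their median log2 fold change was -0.09.

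Within the families of the factors, 2 relatives were called, both lower in males and both X-linked. Of the X-linked genes tested, 27.7% were called lower in males, and of the autosomal genes 0.707% were called in either direction. All 10 factors themselves are autosomal. KLF8, one of 10 tested among 15 other KLF genes, was at 1.58 ± 0.70 CPM in females (SD, n = 6) and at 0.219 ± 0.178 CPM in males (SD, n = 5), and its log2 fold change was -2.82 (SE 0.56, Benjamini-Hochberg adjusted p = 0.0367 by edgeR). It had at most 29 counts in a library. ELF4, one of 14 tested among 22 other ETS genes, was at 13.6 ± 2.16 CPM in females (SD, n = 6) and at 5.85 ± 1.77 CPM in males (SD, n = 5), and its log2 fold change was -1.24 (SE 0.25, adjusted p = 0.0373 by edgeR). For both genes every female was above every male. The call was kept in 9 of 11 fits without one library for KLF8, and lost without male replicate 2 (adjusted p = 0.113) and male replicate 3 (0.175 in the edgeR test). ELF4 kept it in 8 of 11, and lost it without female replicate 5 (0.118), male replicate 2 (0.106) and male replicate 3 (0.151 in the edgeR test). The other KLF gene with the highest mean CPM, KLF10, was at 77.4 ± 23.4 CPM in females (SD, n = 6) and at 63.9 ± 13.8 CPM in males (SD, n = 5). It was not called. Among other GATA and T-box genes, 2 of 4 and 2 of 15 could be tested. Of these edgeR and DESeq2 called 0, and the T-box genes TBX3 and MGA had an unadjusted p under 0.05. GATA6, a hypoblast factor, was at 189 ± 25.1 CPM in females (SD, n = 6) and at 177 ± 25.1 CPM in males (SD, n = 5).

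**Figure D5:**
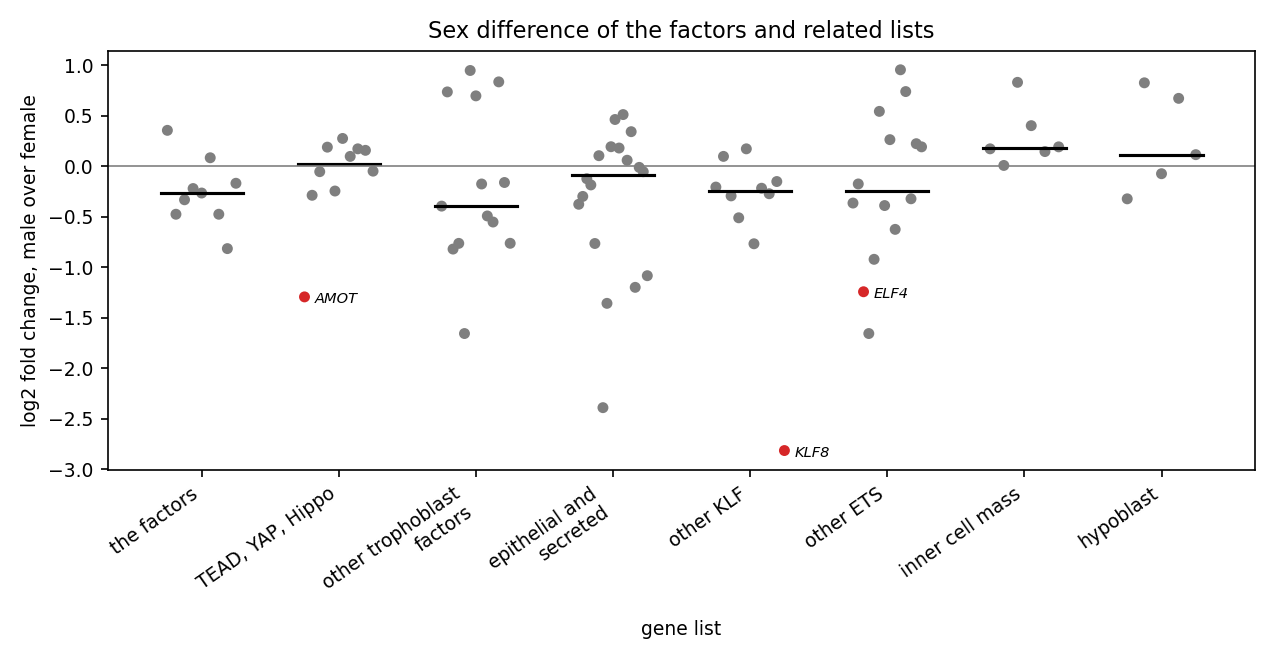
Log2 fold change of male over female (vertical axis) for the tested genes of 8 lists (horizontal axis). Points are genes, black bars the list medians, and the red points with names are the genes called by edgeR, AMOT, KLF8 and ELF4, all lower in males.

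The marker lists of other cell types held no called gene in edgeR or in DESeq2 with the library number. For the inner cell mass, all 6 tested markers had estimates above 0 (higher in males), their median was 0.18 on the log2 scale, and 0 had an unadjusted p under 0.05. Their summed level was 738 ± 150 CPM in females (SD, n = 6) and 928 ± 108 CPM in males (SD, n = 5), with p = 0.0498 in a two-sided exact permutation test of the log2 sums and 0.199 after adjustment over the 4 marker sums. Most of this sum was POU5F1 (means of 345 CPM in females and 464 CPM in males) and SPIC (286 and 300 CPM). NANOG was at 83.1 and 138 CPM. Of the hypoblast markers, 5 were tested and 3 were above 0, with a median of 0.11 and again 0 at that p. Of the cumulus markers 3 were tested, and 1, CYP19A1, had an unadjusted p under 0.05. Their part in the levels of the factors was not tested beyond the correlations above.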

How the data were processed

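RNA-seq libraries of 6 female and 5 male pools of expanded blastocysts were analysed, grouped and numbered by their sample titles. The authors' pipeline trimmed reads (fastp 0.20.0), mapped them (STAR 2.7.10b, ARS-UCD assembly) and assigned them to genes (featureCounts). The deposited values are whole-number counts per gene without normalization, and a strand setting is not given in the sources used here. Symbols were matched to the RefSeq annotation of ARS-UCD2.0 for positions, and 30271 of 32637 matched, all 10 factors among them.

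The software was edgeR 4.0.16 under R 4.3.3. After the filter filterByExpr, with sex as the group, and TMM scaling, genes were tested with the quasi-likelihood test with the library number as a block, in place of the collection week that the study used as a covariate. A call needed a fold change over 1.5 and an FDR (Benjamini-Hochberg) under 0.1. Standard errors were taken as the log2 fold change over the root of the F statistic. Log2 CPM and ratios used a prior count of 2. Single values were tested by exact permutation over 462 splits, with a smallest p of 0.00216, and correlations with 100000 permutations (python 3.11.15, scipy 1.17.1). DESeq2 1.42.0 was an alternative, beside other factors and filters and fits without each library. The test was tried on simulated counts.

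The study's methods describe pools from separate embryos, but the labels do not say whether pools shared a bull or a day, and p-values measure the spread between these pools. Libraries of one sex were no copies of each other, and correlated across genes at r = 0.86 to 0.96 in log2 CPM. Genes are no replicates.

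The factors and lists were chosen with earlier results of these data known. All 10 factors are named, with values by library. Of the other lists, the called genes and the gene with the highest CPM are named, along with the 3 genes most alike to the 4 factors of highest CPM. Further genes named in the lists, MGA, TBX3, GCM1, PTGS2, TEAD4, ID2, CYP19A1 and the keratins in male replicate 5 among them, were chosen after their values were seen.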

Additional observations from a re-analysis of the deposited data

Results flagged for a closer look

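Dixon's test for a single library far from the rest of its sex was applied to 38 groups of values (the factors, their ratios and the marker sums in each sex). It marked 4. Chance alone would mark about 1 in 20 of independent groups of normally distributed values. The ratios share genes with the factors, and EOMES had 0 counts in 3 of the 5 males. Whether 4 marks exceed chance can therefore not be read from that rate. CDX2 in males was marked for male replicate 5 at 25.3 CPM, where the other males lay between 2.64 and 4.22 CPM. KLF5 in females was marked for female replicate 6 at 209 CPM, where the other females lay between 294 and 323 CPM. ELF3 in females was marked for female replicate 1 at 24.5 CPM, where the others lay between 3.84 and 11 CPM. EOMES in males was marked for male replicate 4 at 0.715 CPM (9 counts), where the others lay between 0 and 0.106 CPM. The 4 values come from 4 different libraries, and no cause was tested.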

How the results depend on the processing

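None of the factors was called in any fit, including those without one library. Their fold changes kept direction in 63 of 63 values under other tools, scalings and filters (adjusted p from 0.254 to 0.923) and in 95 of 99 without one library. The 4 that turned were CDX2 without male replicate 5 (-0.33, the lowest of a range up to 0.68), KLF5 without female replicate 6 or male replicate 4 (-0.02 and -0.043, in a range up to 0.16), and ELF3 without female replicate 1 (0.0017, in a range down to -1.01). The fit without the replicate block called 0 factors and 3 genes of the other lists, as with it. Over all tested genes, deviations from the sex mean had a mean r of 0.07 between females and males of one library number (from -0.11 to 0.35) and of -0.04 between numbers, so the number is not shown to pair the libraries. The other lists held 3 calls, and 1 (AMOT) without male replicate 2 or male replicate 3 to 4 without female replicate 2. With no filter beyond 1 count they held 10, adding NANOG, ID2, PTGS2, CLDN4, TKDP1, IFNT2 and IFNT3. The difference in EOMES ran from -0.017 to 0.162 CPM, negative without male replicate 4. Of the ratios 0 passed, and between 0 and 1 without one library. Without one library the log2 ratios differed between the sexes by -0.16 to 0.048 (GATA3 over GATA2), -0.021 to 0.60 (TFAP2C over TFAP2A) and 0.44 to 0.70 (KLF5 over KLF6). For CDX2 over EOMES the range was -0.79 to 0.48, and for ELF3 over ETS2 -0.46 to 0.32. EOMES had 0 counts in 7 of the 11 libraries, so the ratio of CDX2 to EOMES rests largely on the prior count of 2. Among pairs of factors 0 correlations passed, and 2 with the replicate block. With the marker sums 1 passed, 3 with the replicate block (TFAP2A, GATA2 and ETS2 with the hypoblast sum, in place of CDX2), and 0 without male replicate 5 or without the 2 farthest libraries, alternatives chosen after the values were seen. The cause of these changes was not tested, and p-values with the block means removed may be too small. EOMES was at or under the 3-count limit in 10 libraries, among them male replicate 5, which had the most reads and 0 counts of it. The part of depth in this was not tested.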
